A study of Mus musculus with 4 samples.

Results

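The genes described here encode the vacuolar proton pump and the proteins of the lysosome, measured in the kidneys that mouse embryos had at E18.5. The pump is an ATP-driven rotary machine. Its V1 sector hydrolyses ATP in the cytosol and turns a central stalk, and its V0 sector carries protons across the membrane. In the kidney it acidifies endosomes and lysosomes of every cell, most heavily in the proximal tubule, which takes filtered protein up and digests it, and it secretes acid from the intercalated cells of the collecting duct. Lysosomal hydrolases, of which cathepsins are the main proteases, need that acid to work.

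The 2 mutant libraries came from kidneys labelled Hnf4a c/c ; Six2GFPcre, in which both Hnf4a alleles are conditional, and the 2 control libraries from kidneys labelled Hnf4a c/+ ; Six2GFPcre, with 1 conditional allele. Both groups carry Six2GFPcre on a mixed strain background, so the controls can lose 1 copy of Hnf4a and are not intact. Six2GFPcre acts in nephron progenitors and their descendants, so collecting duct cells, which have another origin, and stroma should keep the gene. The labels do not say whether a library is 1 embryo or a pool, and the p-values measure only the spread between these libraries, which may be technical.

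Members were the 43 symbols of a list of pump and lysosome genes, drawn up with the difference between mutant and control kidneys already known. Atp6v1f, a pump subunit that leads the list, was chosen by its FPKM in these 4 libraries, since it was lower in mutant kidneys and passed the threshold in that comparison, so its difference is given as a description. Of the 43 symbols, 39 had a row of their own among 22662 symbols joined across the 4 libraries. The other 4, Atp6v0a4, Atp6v0c, Glb1 and Mcoln1, stood in rows shared with another gene and are given only as shared values. Of the 39, 38 reached an FPKM of 1 in at least 2 libraries and were among the 13287 genes tested. FPKM is fragments per length of transcript and per mapped fragment, so levels of different genes are set side by side here, as a rough guide only. Atp6v1c2, the kidney- and lung-enriched isoform of the stalk subunit C, was listed at 0 in all 4 libraries, where its ubiquitous counterpart Atp6v1c1 was at 34.0 and 35.6 FPKM in mutant and 32.4 and 35.2 FPKM in control kidneys.

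Libraries listed 13085 to 13183 joined symbols at an FPKM of 1 or more, and no read totals are known. Rows without a gene name, which were left out, held 48.8% and 41.9% of FPKM in mutant replicates 1 and 2. In control replicates 1 and 2 they held 48.9% and 45.0%. Hnf4a itself was at 87.1 and 78.5 FPKM in mutant and 89.3 and 84.6 FPKM in control kidneys, which does not check the labels, since the labels do not say which part of the gene is removed. A list of 15 proximal tubule markers, Hnf4a among them, summed to 328 and 334 FPKM in the mutant libraries, against 747 and 622 FPKM in the control libraries, and none of the 15 was at 0 in every library. The 11 intercalated cell markers summed to 237 and 214 FPKM in mutant and 186 and 206 FPKM in control kidneys. Of these, 9 had positive and 2 negative log2 changes, mutant against control, with a median of 0.18. Foxi1, their defining transcription factor, was at 18.8 and 17.2 against 17.6 and 17.4 FPKM. Slc4a9 was at 32.9 and 14.8 against 12.6 and 12.5 FPKM, so it raises the sum mainly in mutant replicate 1. The 13 macrophage markers, from cells rich in lysosomes, summed to 164 and 191 FPKM in mutant and 169 and 159 FPKM in control kidneys. In bulk tissue, fewer cells of a type and less RNA per cell cannot be told apart, and the part of these marker differences in the values of the members was not tested.

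Atp6v1f encodes subunit F, a small protein of the central stalk beside subunit D. It was at 145 FPKM in both mutant libraries, against 316 and 333 FPKM in the control libraries. The control libraries lay above the mutant libraries by more than the spread within either group. The means were 145 ± 0.046 FPKM in mutant and 325 ± 12.5 FPKM in control kidneys (SD, n = 2 each), so the mutant mean was 44.6% of the control mean, a log2 change of -1.16 (SE 0.07, limma, on the log2(FPKM + 1) scale). Its mean was the highest of the members in control kidneys, while in mutant kidneys the mean of Atp6v0e, 151 FPKM, was above it because of mutant replicate 1 alone. Subunit D (Atp6v1d), its neighbour in the stalk, was at 55.9 and 56.9 FPKM in mutant and 46.2 and 55.7 FPKM in control kidneys, a log2 change of 0.15 (SE 0.11) that was 0.02 without control replicate 1 and 0.28 without control replicate 2. The level of Atp6v1f over that of Atp6v1d was accordingly 2.59 and 2.55 in mutant libraries, against 6.83 and 5.98 in control libraries.

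The deposited locus of Atp6v1f, on mm9 chromosome 6, ended at position 29420509 in every library but did not start at the same place. It started at 29417783 in both mutant libraries, and at 29417754 and 29417776 in control replicates 1 and 2, which is 29 and 7 bases further upstream. The mutant span of 2727 bases equals that of the RefSeq gene on GRCm38. Start site identifiers were counted in 1 library only, where the gene had 1, and no other row overlapped it in any library. Among 13251 tested genes with 1 row per library, 211 (1.59%) likewise had 1 locus in both mutant libraries and another in each control library. Among the 38 tested members Atp6v1f was the only 1.

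The interval deposited with each FPKM also differed for Atp6v1f. Its margin, the distance from its centre to either bound, was 10.3% and 9.51% of the FPKM in mutant replicates 1 and 2, against 16.6% and 16.3% in control replicates 1 and 2. The interval was thus relatively wider where the level was higher. In 610 tested genes with mean levels from 100 to 400 FPKM, the median margin was 7.23% and 7.05% in the mutant libraries and 7.66% and 7.10% in the control libraries. Of 144 genes that were lower in mutant kidneys by 1 or more on the log2 scale, with no overlap between groups and no library at 0, 9 (6.25%) had a wider relative interval in both control libraries, and Atp6v1f was among them. Whether the locus or the interval has a part in the lower level was not tested.

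**Figure D1:**
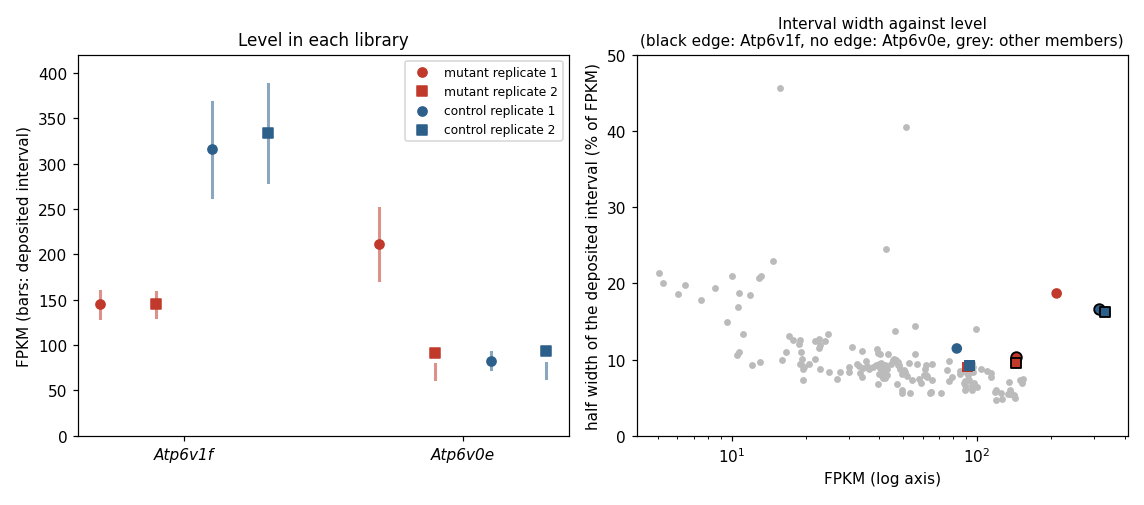
FPKM of Atp6v1f and Atp6v0e in each library with the deposited interval (left, linear axis from 0) and the margin of that interval, as a percentage of FPKM, against FPKM on a log axis for all members (right). The 2 control values of Atp6v1f and the mutant replicate 1 value of Atp6v0e combine a high level (211 to 333 FPKM) with margins of 16.3% to 18.7%.

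The sequence upstream of Atp6v1f is shown because this gene carries the difference. The 250 bases before its RefSeq start, chr6:29467533-29467782 on the plus strand of GRCm38, held 2 GC boxes (GGGCGG, or its reverse complement, in capitals), a letter pattern bound by Sp1-type factors.
Atp6v1f: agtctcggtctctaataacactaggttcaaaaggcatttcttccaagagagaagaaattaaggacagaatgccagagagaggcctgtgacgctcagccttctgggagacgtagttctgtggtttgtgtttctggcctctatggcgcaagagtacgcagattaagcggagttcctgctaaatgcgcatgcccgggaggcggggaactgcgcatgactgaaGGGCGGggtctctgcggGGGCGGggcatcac
In RefSeq windows from 250 bases before to 50 bases after a start, this pattern occurred on either strand for 25 of the 34 members with a window (73.5%) and for 38.2% of 27025 symbols. Those are all symbols with a window, many of them not among the tested genes, so they are an unlike background for the members. The HNF4 pattern CAAAGTCCA, searched on both strands, was in no member's window and in 0.555% of all symbols' windows. No match says only that these letters are absent from those windows.

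The other subunits of V1 stood apart from Atp6v1f. Subunits A and B form the ring that hydrolyses ATP. Atp6v1a was at 64.8 and 64.2 FPKM in mutant and 65.0 and 71.7 FPKM in control kidneys, a log2 change of -0.08 (SE 0.08) that was -0.15 without control replicate 1 and -0.01 without control replicate 2. The ubiquitous B isoform, Atp6v1b2, was at 50.3 and 51.9 FPKM in mutant and 57.8 and 59.2 FPKM in control kidneys, with no overlap between groups and a log2 change of -0.19 (SE 0.07). Its locus overlaps that of Slc18a1, which lies on the opposite strand in GENCODE, so reads there cannot be assigned with certainty. Slc18a1 was at 2.34 and 2.66 FPKM in mutant and 8.52 and 3.52 FPKM in control kidneys. Atp6v1b1, the B isoform of intercalated cells, mutated in human distal renal tubular acidosis, was at 40.7 and 40.4 FPKM in mutant and 42.0 and 39.1 FPKM in control kidneys, and its log2 change was 0.00 (95% interval -0.21 to 0.21).

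The peripheral stalks, which hold the ring still, include subunits C, E, G and H. Atp6v1e1 was at 89.8 and 90.2 FPKM in mutant and 85.0 and 96.0 FPKM in control kidneys. Atp6v1g1 was at 110 and 114 FPKM in mutant and 104 and 114 FPKM in control kidneys, so both groups overlapped for E and G. Atp6v1h, which links the stalks to the membrane sector, was at 48.5 and 49.6 FPKM in mutant and 39.7 and 51.0 FPKM in control kidneys, and its control libraries lay on either side of the mutant values. Atp6v1g3, the kidney isoform of G, was at 9.98 and 11.8 FPKM in mutant and 8.56 and 10.7 FPKM in control kidneys, far below Atp6v1g1 (ratios of 0.0908 and 0.104 in mutant and 0.0825 and 0.0937 in control libraries).

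In the V0 sector 1 library decided the one large difference. Atp6v0e, the small membrane subunit e, was at 211 and 91.6 FPKM in mutant replicates 1 and 2, against 82.8 and 93.1 FPKM in the control libraries. Mutant replicate 1 was high, and mutant replicate 2 lay within the control range. The log2 change was 0.66 (SE 0.41) with all libraries and 0.06 without mutant replicate 1. The Atp6v0e locus on mm9 chromosome 17 ended at 26836591 throughout. Mutant replicate 1 had its start at 26813337, and the remaining libraries had theirs at 26813341. Its interval had a margin of 18.7% of FPKM in mutant replicate 1, 9.03% in mutant replicate 2, and 11.5% and 9.19% in the control libraries, and whether the locus or interval has a part in the high value was not tested. In mutant replicate 2 and control replicate 2 the deposited FPKM of 91.6 and 93.1 lay above its own interval (62.5 to 79.0 and 63.2 to 80.3), so those values are uncertain too.

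Most other V0 genes varied little over the 4 libraries. Atp6v0b, a subunit of the proton-carrying ring, was at 95.1 and 98.9 FPKM in mutant and 94.9 and 96.0 FPKM in control kidneys. The main ring subunit, Atp6v0c, shares its row with Atp6v0c-ps2, named as a pseudogene copy, and that row held 149 and 136 FPKM in mutant and 155 and 152 FPKM in control kidneys. Atp6v0d1, the collar that joins ring and stalk, was at 62.0 and 61.6 FPKM in mutant and 62.2 and 65.3 FPKM in control kidneys. These 3 rows differed by -0.11 to 0.02 on the log2 scale. Atp6v0d2, the d isoform of intercalated cells and osteoclasts, was more variable, at 13.2 and 10.6 FPKM in mutant and 7.50 and 14.7 FPKM in control kidneys. Its log2 change of 0.16 (SE 0.33) was -0.29 without control replicate 1, so no direction holds.

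Subunit a anchors the pump in a given membrane. Atp6v0a1 was at 20.7 and 19.7 FPKM in mutant and 22.8 and 19.3 FPKM in control kidneys, and Atp6v0a2, an isoform of the Golgi and endosomes, at 19.2 and 19.6 against 19.6 and 18.9 FPKM. The row shared by Atp6v0a4, the isoform mutated in human distal renal tubular acidosis, and D630045J12Rik held 30.0 and 25.0 FPKM in mutant and 33.9 and 33.2 FPKM in control kidneys. The groups did not overlap in that row, its log2 change of -0.28 was -0.16 without mutant replicate 2, and the share of either gene in it cannot be told apart. Its locus is also overlapped over 6454 bases by Tmem213, which lies on the opposite strand in GENCODE and was at 99.5 and 115 FPKM in mutant and 126 and 108 FPKM in control kidneys. Atp6v0e2 was at 22.6 and 22.9 FPKM in mutant and 21.9 and 24.6 FPKM in control kidneys. The accessory proteins Atp6ap1, needed for pump assembly, and Atp6ap2, the (pro)renin receptor, averaged 62.5 ± 0.12 and 47.8 ± 0.242 FPKM in mutant and 63.4 ± 3.20 and 44.3 ± 4.76 FPKM in control kidneys (SD, n = 2 each).

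**Figure D2:**
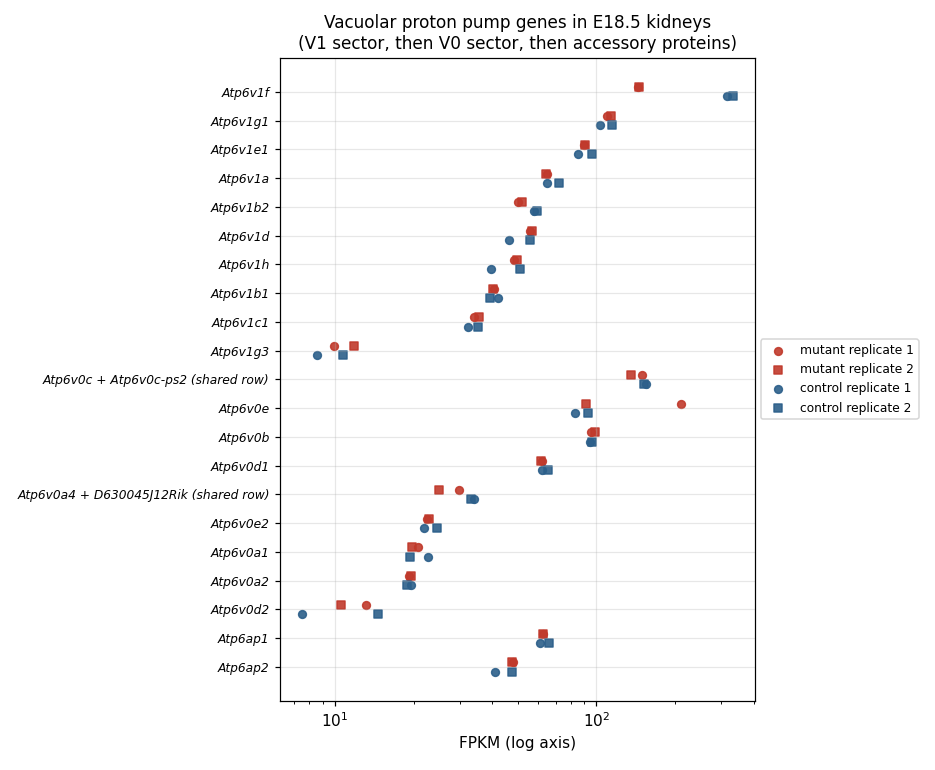
FPKM of each pump gene in the 4 libraries on a log axis, ordered within V1, V0 and accessory proteins by mean level, with mutant libraries (red) above control libraries (blue) in each row. Points of the 2 groups lie close together for most genes, apart from the control values of Atp6v1f (316 and 333 FPKM) and mutant replicate 1 of Atp6v0e (211 FPKM). Atp6v1c2, listed at 0, is not drawn.

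Among the pump genes, by mean over the 4 libraries, Atp6v1f (235 ± 104 FPKM, SD, n = 4) was followed by the shared row of Atp6v0c (148 ± 8.58 FPKM) and by Atp6v0e (120 ± 61.3 FPKM), whose place rests on mutant replicate 1. In the other libraries Atp6v0e lay below Atp6v1g1 (110 ± 4.91 FPKM), which was followed by Atp6v0b (96.2 ± 1.87 FPKM) and Atp6v1e1 (90.3 ± 4.47 FPKM). Atp6v0b and Atp6v1e1 overlapped in their ranges over libraries. Isoforms enriched in intercalated cells stood at the low end, with Atp6v1g3 at 10.3 ± 1.38 and Atp6v0d2 at 11.5 ± 3.15 FPKM, apart from Atp6v1b1 at 40.5 ± 1.17 FPKM. The 3 tested isoforms of that kind differed by 0.00 to 0.17 on the log2 scale, with overlapping groups in each. Among the 19 tested pump genes 17 had a log2 change below 0.2 in size, the exceptions being Atp6v1f and Atp6v0e. Over all tested genes 68.5% had a change that small, so most genes share this.

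No lysosomal protease passed the threshold over all genes. In 5 of the 7 the mutant values lay below both control values, as they did in 17.1% of all tested genes. Lgmn, an asparaginyl endopeptidase abundant in the proximal tubule, was at 79.0 and 77.1 FPKM in mutant and 89.4 and 93.0 FPKM in control kidneys, a log2 change of -0.22 (SE 0.07). Ctsz, a carboxypeptidase, was at 76.7 and 75.8 FPKM in mutant and 85.1 and 92.3 FPKM in control kidneys, also -0.22 (SE 0.07). Ctsa, the protective protein that stabilises sialidase and beta-galactosidase in a complex, was at 36.3 and 37.8 FPKM in mutant and 47.3 and 42.8 FPKM in control kidneys, -0.27 (SE 0.09). In these 3 genes the gap between groups was larger than the gap within the mutant pair. The deposited FPKM lay above its own interval for Lgmn in mutant replicate 1 and control replicate 2. The same held for Ctsz in mutant replicate 2 and control replicate 2, so those values are uncertain.

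Ctsh, an aminopeptidase, was at 39.6 and 45.6 FPKM in mutant and 52.9 and 46.8 FPKM in control kidneys, so mutant replicate 2 and control replicate 2 nearly met. Ctsb, a cysteine protease, was at 49.3 and 49.4 FPKM in mutant and 51.3 and 53.3 FPKM in control kidneys. Its interval in control replicate 1 ran from 30.5 to 72.1 FPKM, a margin of 40.5% of FPKM, far wider than in any other library. That interval encloses both mutant values, so the separation of the groups for Ctsb is uncertain. The aspartic protease Ctsd and the cysteine protease Ctsl overlapped between groups, Ctsd at 138 and 134 FPKM in mutant and 136 and 142 FPKM in control kidneys. Ctsl was at 97.3 and 88.2 FPKM in mutant and 89.5 and 95.4 FPKM in control kidneys. The loci of Ctsa, Ctsb and Ctsz overlap Pltp and Neurl2, Fdft1 and Nelfcd, all on the opposite strand in GENCODE, by 9 to 1515 bases, so some of their reads cannot be assigned with certainty.

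Enzymes that take sugars off glycans and lipids differed from each other. Neu1, the lysosomal sialidase mutated in human sialidosis, was at 18.7 and 21.8 FPKM in mutant and 26.8 and 27.7 FPKM in control kidneys, the largest negative change after Atp6v1f (-0.41, SE 0.11). Man2b1, the alpha-mannosidase, was at 16.0 and 16.7 FPKM in mutant and 24.0 and 19.1 FPKM in control kidneys, a log2 change of -0.37 that was -0.21 without control replicate 1. Both mutant libraries were below both control libraries for these 2 genes. Gla, the alpha-galactosidase deficient in Fabry disease, went the other way, at 6.46 and 6.04 FPKM in mutant and 5.23 and 5.06 FPKM in control kidneys (0.24, SE 0.14). It was also the tested member with the lowest mean level.

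Hexa, the alpha subunit of beta-hexosaminidase, was at 45.8 and 44.5 FPKM in mutant and 42.9 and 46.0 FPKM in control kidneys. Gusb, the beta-glucuronidase, varied by replicate, at 30.9 and 40.3 FPKM in mutant and 30.0 and 43.5 FPKM in control kidneys. The Gusb locus ended at 130478698 in replicate 1 of both groups. It ended at 130478862 in mutant replicate 2 and 130478859 in control replicate 2, and whether the locus has a part in the values was not tested. The row shared by Glb1, the beta-galactosidase, and Tmppe held 32.9 and 42.1 FPKM in mutant and 54.5 and 38.9 FPKM in control kidneys, and overlapped between groups. Psap, the precursor of the saposins that help hydrolases reach lipids, was at 136 and 126 FPKM in mutant and 141 and 143 FPKM in control kidneys. Npc2, which hands cholesterol to Npc1, was at 41.3 and 40.0 FPKM in mutant and 39.6 and 42.2 FPKM in control kidneys, with a log2 change of -0.01 (95% interval -0.22 to 0.20).

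Membrane proteins of the lysosome overlapped between groups except for Ctns, the cystine exporter whose loss causes cystinosis and a renal Fanconi syndrome. Ctns was at 13.0 and 15.8 FPKM in mutant and 11.1 and 9.57 FPKM in control kidneys, a log2 change of 0.43 (SE 0.16), and both mutant libraries were above both control libraries. The margin of its interval was 20.7% and 45.6% of FPKM in the mutant and 13.4% and 14.9% in the control libraries. The abundant coat proteins Lamp1 and Lamp2 averaged 119 ± 0.968 and 92.2 ± 4.09 FPKM in mutant and 122 ± 3.78 and 95.3 ± 6.79 FPKM in control kidneys (SD, n = 2 each). Npc1, the cholesterol exporter, was at 10.5 and 12.1 FPKM in mutant and 13.1 and 10.7 FPKM in control kidneys. The row of Mcoln1, a calcium channel, shared with Pnpla6, held 42.0 and 34.4 FPKM in mutant and 42.7 and 41.7 FPKM in control kidneys, and unnamed rows overlapped it in each library.

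**Figure D3:**
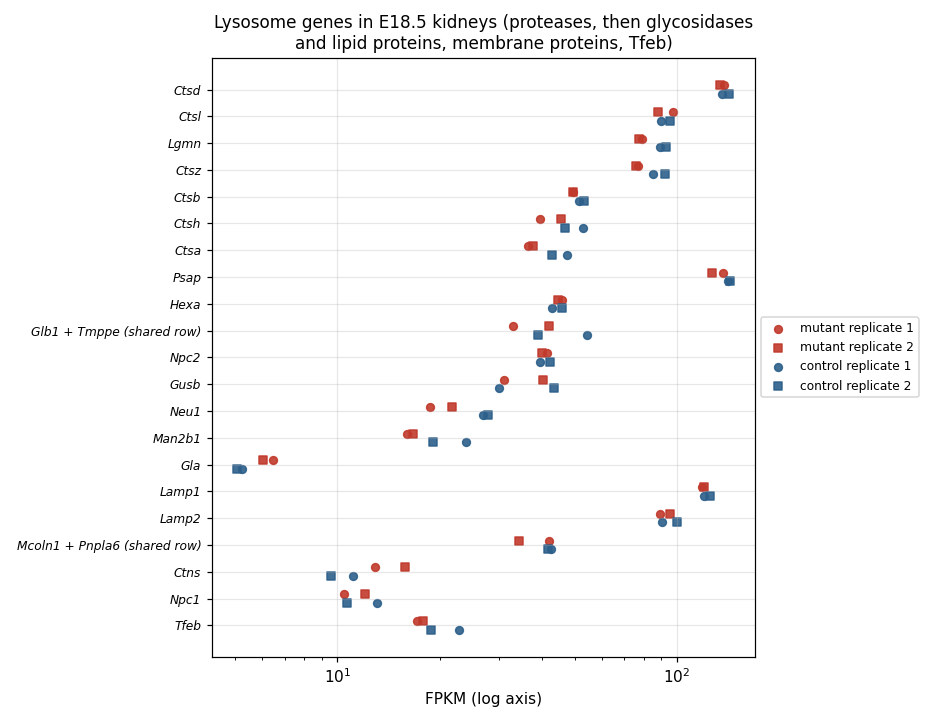
FPKM of each lysosome gene in the 4 libraries on a log axis, ordered within roles by mean level, with mutant libraries (red) above control libraries (blue) in each row. Both mutant points lie left of both control points for Neu1, Man2b1, Ctsa, Ctsz, Lgmn, Ctsh, Ctsb, Psap and Tfeb. For Ctns and Gla both lie to the right. The groups were likewise apart in 17.1% (lower in mutant) and 22.7% (higher) of all tested genes.

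Tfeb, a transcription factor that activates lysosome and pump genes, was at 17.1 and 17.8 FPKM in mutant and 22.8 and 18.9 FPKM in control kidneys. Its log2 change was -0.24 (SE 0.13), and -0.11 without control replicate 1. Of 17 other genes that control lysosomes, 10 had negative changes and 0 passed the threshold over all genes with limma (unadjusted p under 0.05: 1 lower and 0 higher, beside 4.57% and 2.67% of all tested genes). The 2 with the smallest unadjusted p were Tfec, a relative of Tfeb, at 1.82 and 3.13 FPKM in mutant and 8.09 and 7.32 FPKM in control kidneys, and Lamtor5, a part of the complex that holds mTORC1 on lysosomes, at 55.1 and 57.3 against 63.0 and 64.8 FPKM. Tfec changed by -1.35 on the log2 scale (adjusted p = 0.235 over all genes, limma).

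TFEB and its relatives bind the CLEAR element, TCACGTGA with a G before it and a C after it. In the RefSeq windows, searched on both strands, the full element was in 0 of 34 members and in 0.37% of the same 27025 symbols, many of them not tested. Its centre, TCACGTGA, which reads the same on both strands, was in 7 members (20.6%) and in 1.12% of symbols. The shorter CACGTG that it contains was in 12 members (35.3%) and in 8.09% of symbols. Stretches around it are shown, with the centre in capitals, because these 7 members hold the pattern that TFEB-type factors bind.
Atp6v0d1 (chr8:105566050-105566079, minus): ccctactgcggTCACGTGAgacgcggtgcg
Atp6v0e (chr17:26676387-26676416, plus): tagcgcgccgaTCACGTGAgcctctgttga
Atp6v1a (chr16:44139373-44139402, minus): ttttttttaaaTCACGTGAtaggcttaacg
Ctsd (chr7:142387908-142387937, minus): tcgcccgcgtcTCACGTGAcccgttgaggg
Mcoln1 (chr8:3500462-3500491, plus): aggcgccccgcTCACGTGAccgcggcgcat
Gla (chrX:134601215-134601244, minus): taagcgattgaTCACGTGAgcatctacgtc
Ctsa (chr2:164833749-164833778, plus): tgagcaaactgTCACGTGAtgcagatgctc
Coordinates are those of GRCm38, and Gla and Ctsa each held a second copy. A match is a description, not a site shown to be bound. The members were listed as lysosome and pump genes, the kind that Tfeb activates. All symbols are thus an unlike background, and nothing is read from the members' larger shares. The log2 changes of the 7 genes ran from -0.27 (Ctsa) to 0.66 (Atp6v0e), with a median of -0.04, the value for Mcoln1 being that of its shared row.

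Across all 38 tested members the median log2 change was -0.03, with 23 negative and 15 positive, beside a median of 0.02 and 44.7% negative over all tested genes. With libraries scaled to the same FPKM sum the median was 0.00 over the members and 0.05 over all tested genes, so scaling moved both. The lysosome members had a median of -0.06 with 15 of 19 negative, and the pump members a median of 0.01 with 8 of 19 negative. The groups did not overlap in 16 members, 13 lower and 3 higher in mutant kidneys, beside 39.8% of all tested genes (17.1% lower and 22.7% higher). Because the list was made with this contrast in view, nothing is read from these counts.

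In the limma fit over all 13287 genes, Atp6v1f was the 1 member called lower at an adjusted p under 0.05, where 0.113% of tested genes were called lower, and 0 members were called higher, where 0.0452% were. At an unadjusted p under 0.05 the same fit had 6 of 38 members lower and 1 higher, beside 4.57% of all tested genes lower and 2.67% higher. Atp6v1f was chosen for passing, so its call supports nothing, and it was lost when any 1 of the 4 libraries was left out (adjusted p from 0.0506 to 0.176, limma), without the filter on low values (0.0669) and without a variance trend (0.0778). Among the other 37 members the smallest adjusted p was 0.474, for Neu1. A p that misses the threshold does not show that values were alike, and the median SE of these 37 was 0.09 on the log2 scale.

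**Figure D4:**
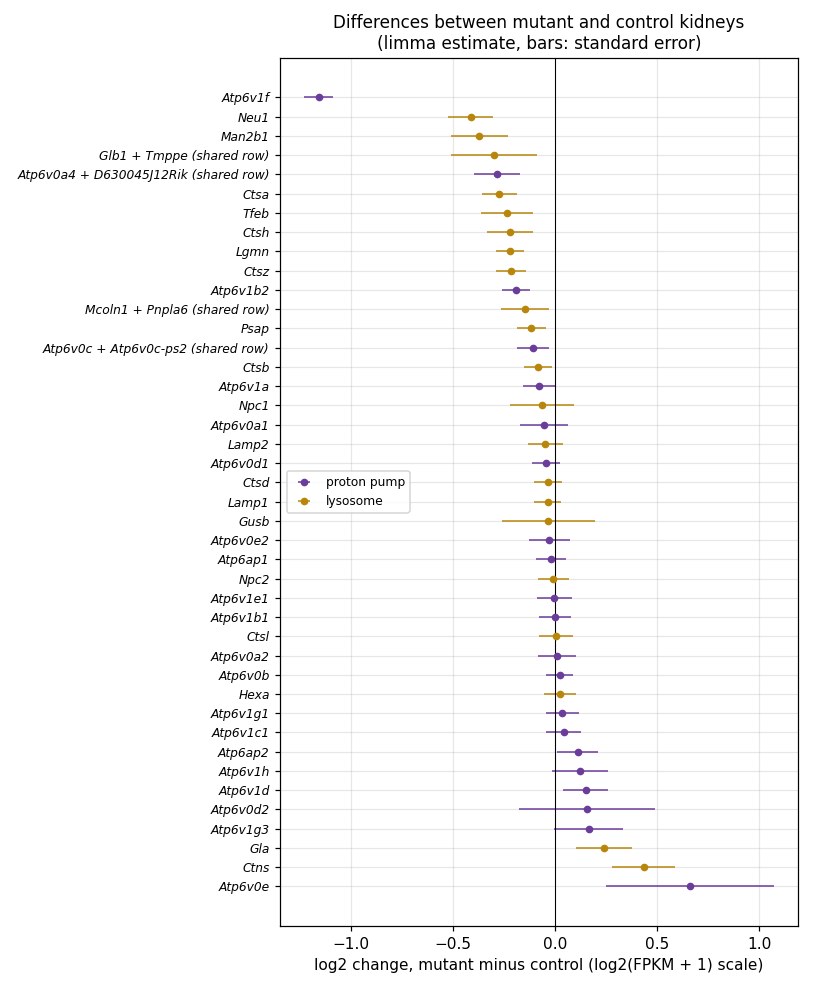
Log2 change, mutant minus control, of the 38 tested members and the 4 shared rows, with bars for the standard error from limma. Atp6v1f stands at -1.16 and Atp6v0e, with a long bar, at 0.66, and the remaining points lie between -0.41 and 0.43.

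Other genes of the pathway, from lists that do not overlap with the members, had 0 calls with limma over all genes. Of 12 tested genes for further pump subunits, assembly factors and regulators, 8 had positive changes, with a median of 0.08, and at an unadjusted p under 0.05 the fit had 1 of the 12 higher and 0 lower, where 2.67% of all tested genes were higher and 4.57% lower. Tcirg1, the a isoform of osteoclasts, was at 19.8 and 24.9 FPKM in mutant and 15.8 and 17.3 FPKM in control kidneys, and the assembly factor Tmem199 at 34.1 and 23.9 against 19.9 and 23.5 FPKM. Of 55 further lysosome genes, 37 had negative changes, with a median of -0.04, beside 44.7% negative over all tested genes. At an unadjusted p under 0.05 the fit had 5 of the 55 lower and 2 higher, beside 4.57% lower and 2.67% higher of all tested genes. The 2 with the smallest unadjusted p went opposite ways. Ppt2, a lysosomal thioesterase, was at 40.8 and 38.4 FPKM in mutant and 54.8 and 52.0 FPKM in control kidneys. Ctsf, a cysteine cathepsin, was at 34.4 and 38.5 FPKM in mutant and 28.4 FPKM in both control kidneys.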

How the data were processed

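RNA of embryonic kidneys was poly(A) selected, and libraries were made with ThruPLEX DNA-seq (labels' protocols); no strand setting is described. The deposited tables hold FPKM values with interval bounds, computed by the authors, 1 library per table. Cufflinks 2.1.1, TopHat2 2.0.11, SAMtools 0.1.19, Bowtie 1.0.0 and the build mm9 are named, per the submitters' processing notes. Options and annotation: not given in the sources used here. Row identifiers and locus bounds differ between tables, and whether a value moves with its locus was not tested. Written starts count from 0 (spans equal RefSeq spans in 7805 of 13501 rows that way, against 374 otherwise), and 1 was added.

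FPKM was summed per symbol, and of 22761 symbols found for every library 99 had a row not marked OK and were left out. Genes with 2 or more libraries at FPKM 1 or above were fitted on log2(FPKM + 1) with limma 3.58.1 in R 4.3.3 (trended eBayes, group as the single term, Benjamini-Hochberg over all genes, threshold 0.05). The fit was also run on simulated data with independent noise, which does not bear on values tied to locus or interval. Depth is unknown. Among values under an FPKM of 0.1, the most frequent log2 ratio was -0.2 for mutant replicate 2 over each control library and 0.2 for mutant replicate 1 over mutant replicate 2, and 0 to 0.05 for the other pairs, as a guide to relative depth. Members, lists and the rule for named genes were chosen with earlier results of these data known. The rule gives Atp6v1f first, then every member by role, overlapping genes, called genes of 3 pathway lists (with none, the 2 with the smallest unadjusted p) and marker sums. Promoter sequences and gene spans come from RefSeq tables on GRCm38.p6, strands from GENCODE M21. Alternatives changed the pseudocount, filter, scaling, variance model, rows, threshold, block and libraries.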

Additional observations from a re-analysis of the deposited data

How the results depend on the processing

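Over all genes, limma called 6 higher and 15 lower in mutant kidneys. Without a filter 6 were lower, with an FPKM of at least 1 in all libraries 2 were higher, without a variance trend 7 were lower, and at an adjusted p under 0.1 there were 13 higher and 66 lower. Leaving out 1 library gave 0 to 4 higher and 0 to 17 lower. The 0 calls without control replicate 1 stand beside unadjusted counts (p under 0.05) of 293 higher and 721 lower, and those without control replicate 2 beside 1192 and 1103. The labels do not say that replicate numbers pair the libraries, and replicate differences correlated at 0.147 between groups. In the fit with a replicate block 3 genes were higher and 3 lower, and 0 members were lower. Member calls were also 0 without a filter (adjusted p of Atp6v1f 0.0669), without a trend (0.0778) and without any 1 library (0 to 0). The log2 change of Atp6v1f ran from -1.20 to -1.12 over the 15 alternatives. Changes of filter, variance trend, rows, threshold or block cannot move this estimate, which was -1.16 in each. Their agreement was fixed in advance and says nothing about its stability. The members' median ran from -0.069 to 0.010 when 1 library was left out, and from -0.05 to 0.00 under other scalings, where the median over all genes ran from 0.00 to 0.05. It was -0.04 with the 4 shared rows counted, an alternative chosen after seeing the data. A group reduced to 1 library is assumed to vary like the other. Depth is unknown, so precision rests on 2 libraries per group.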

Other observations

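Some deposited FPKM values lay outside their own interval. Among the 38 tested members this held for 4 in mutant replicate 1, 6 in mutant replicate 2, 0 in control replicate 1 and 6 in control replicate 2, and over all 13251 tested genes with 1 row per library for 4.40%, 4.83%, 0% and 4.54%. At least 1 library was affected in 9 members (23.7%) and in 7.39% of all such genes. The 9 were Atp6v0b, Atp6v0d1, Atp6v0e, Atp6v1e1, Ctsd, Ctsl, Ctsz, Lamp1 and Lgmn. Start or end of the locus differed between libraries in 11 of the 38 members (28.9%) and in 43.0% of all such genes. Replicates of tested members differed by a median of 0.05 on the log2 scale in mutant and 0.13 in control kidneys, against 0.11 and 0.17 over all tested genes.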
